A study of Mus musculus with 8 samples.

Results

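The amino acid and peptide transporters are the genes whose names fall in the solute carrier families Slc1a, Slc3a, Slc6a, Slc7a, Slc15a, Slc36a, Slc38a and Slc43a. Membership was set by name alone, which gave 64 of the 29037 genes in the table. Of these, 3 are not transporters but genes named after a neighbouring transporter (Slc36a3os, Slc6a19os and Slc7a6os), which leaves 61 transporter genes. In intestinal crypts labelled Tdp-43 conditional knockout (cKO), 6 of the genes had more RNA than in wild-type littermates (Ctrl): the cationic amino acid carriers Slc7a1 and Slc7a3, the glutamine carrier Slc38a1, the light chains Slc7a5 and Slc7a11, which carry large neutral amino acids and cystine, and Slc3a2, the heavy chain of those light chains. The carriers with less RNA were the broad apical carrier Slc6a14, the glutamate carrier Slc1a1 and the lysosomal carrier Slc38a9. Among all 16536 tested genes, 5.65% were higher and 6.07% lower, and the 3 lower members, 6.98% of those tested, were near that share. Slc7a3 had enough counts to be tested only through the cKO libraries. Slc7a1 and Slc38a9 each lost the call in 5 of the 8 fits that left out a library.

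Amino acids enter an epithelial cell through carriers that each take a class of substrates: sodium-coupled symporters accumulate neutral or acidic amino acids, proton-coupled carriers take small amino acids and short peptides, and exchangers trade an amino acid inside for one outside. Most Slc7 exchangers work as a pair, in which a light chain does the transport and a heavy chain, Slc3a2 or Slc3a1, brings it to the membrane. In an absorptive cell the apical carriers face the gut lumen and the basolateral carriers face the blood, while carriers in the lysosomal membrane feed the sensing of amino acids by the kinase complex mTORC1. Several transporter genes are reported targets of ATF4, the transcription factor of the amino acid response.

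The RNA came from crypts of mice 8 weeks old, released from the intestine with EDTA and shaking, with 4 cKO libraries and 4 Ctrl libraries. Ctrl mice were wild-type littermates of the cKO mice. The Cre line, the cells in which it acts, the sexes of the mice and the gut segment were found neither in the labels nor in the files. Library totals recovered from the deposited values ran from 25224433 to 26938056 reads in cKO and from 21517596 to 29992110 reads in Ctrl. All levels below are normalized counts as deposited, one value per gene and library.

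Facts of the libraries bear on what follows. Whole-gene RNA of Tardbp, the gene for Tdp-43, was higher in cKO (10794 to 13269 normalized counts) than in Ctrl (4900.2 to 6342). The sources used here do not say which part was deleted, so a whole-gene value does not check the labels, and every direction below is between libraries as labelled. Epcam, an epithelial marker, had 39306 to 48870 normalized counts in cKO and 44507 to 53077 in Ctrl, while of the absorptive enterocyte markers Fabp1, Lct, Apoa1 and Apoa4 had at most 8.01 in any library apart from Apoa1 and Apoa4, which reached 28.3 and 50.7 in cKO 2. On the same list, Fabp2 had 1693 to 4182 normalized counts in cKO and 5299.8 to 7418 in Ctrl, and was lower (log2 fold change -1.45; limma adjusted p = 0.0141). All 6 colonocyte markers were detected, and their summed level was 59758 to 155908 in cKO and 90340.2 to 125038 in Ctrl. The library cKO 2 stood apart, with the highest colonocyte sum and the lowest level of the stem cell marker Lgr5 (30.2 normalized counts, against at least 210.0 elsewhere). The library cKO 3 had 32.1 normalized counts of Xist, which is read from an inactive X chromosome, against 24091 to 32502 in the other 7 libraries. Neutrophil markers (6 genes) summed to 99.5 to 1611 in cKO and 7.30 to 126 in Ctrl, and leukocyte markers (6 genes) to 440 to 1080 in cKO and 643 to 1060 in Ctrl. Of the neutrophil markers 5 were called higher, all but Cxcr2, with a median log2 fold change of 3.38 over the list. S100a8, S100a9, Retnlg and Il1r2 averaged at most 9.68 normalized counts in Ctrl, so these entered the test only through the cKO libraries. No leukocyte marker was called. Goblet cell markers (5 genes) summed to 254903 to 693067 in cKO and 542442 to 1029640 in Ctrl, with Clca1 lower (log2 fold change -1.87; limma adjusted p = 0.0464). Clca1 and Fcgbp made up most of that sum. The other genes of the list were not called. Their log2 fold changes were 0.69 for Tff3, -0.12 for Muc2, -0.53 for Fcgbp and -0.52 for Spink4. Among other epithelial markers, Krt20 (0.60; limma adjusted p = 0.0322), the Paneth list's Mmp7 (2.53; 0.0126) and the stem cell list's Olfm4 (1.49; 0.0484) were higher. Olfm4 was low, with at most 43.8 normalized counts. The Paneth and stem cell lists were mixed. Itln1 (Paneth, -2.15) and Smoc2 (stem cell, -1.05) were lower in every cKO library than in any Ctrl library, but were not called. Stem cell markers (5 genes) summed to 1270 to 2626 in cKO and 2609 to 3361 in Ctrl. Paneth markers (4 genes) summed to 1730 to 2233 in cKO and 2047 to 3471 in Ctrl. The part these differences in cell content play in any result below was not tested, and in bulk RNA fewer cells of a type and less RNA per cell cannot be told apart.

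Of the 64 members, 43 had a mean of at least 10 normalized counts and were tested, and 21 fell under that limit. By limma on log2(value + 1), with Benjamini-Hochberg adjustment over all 16536 tested genes and a threshold of 0.05, 6 members were higher and 3 were lower in cKO. Those counts, and the counts by class and list below, stand beside 5.65% higher and 6.07% lower among all tested genes. Of the tested members, 6.98% were lower, near the background. Slc7a3, 1 of the 6 higher members, passed the limit only through the cKO libraries. The median log2 fold change of the tested members was 0.20, and that of all tested genes was -0.01. Without cKO 2, 9 members were higher, the 6 with Slc15a3, Slc1a4 and Slc7a6, and without any other library 5 to 7 were. Calls over all genes moved as well. Without cKO 2, 1347 of 16491 tested genes were higher, against 935 of 16536 with all libraries, and without any other library 379 to 824 were. The family was chosen with earlier results of these data known, so these shares describe it and are not a test of it.

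The cationic amino acid carriers held the largest change. Slc7a3 encodes a carrier of arginine, lysine and ornithine (ENSMUSG00000031297, GRCm38 chromosome X, 101079210 to 101086020, minus strand). It had 64.8, 27.3, 33.1 and 95.2 normalized counts in the 4 cKO libraries, against 2.43, 1.05, 3.79 and 2.67 in the 4 Ctrl libraries. Every cKO library was above every Ctrl library, and with 229 recovered reads over the cKO libraries and 10 over the Ctrl libraries the gene passed the filter on low values only through the cKO libraries. The means were 55.1 ± 31.4 in cKO and 2.49 ± 1.12 in Ctrl (SD, n = 4 each), a ratio of 22.2. Its log2 fold change was 3.90 ± 0.46 (SE), with an adjusted p of 0.00300 by limma.

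Slc7a1 is the widely expressed carrier of the same substrates (ENSMUSG00000041313, chromosome 5, 148327410 to 148399904, minus strand). It had 4035, 2277, 2981 and 3592 normalized counts in cKO libraries, against 2190.0, 1679, 1869 and 1630.4 in Ctrl libraries. The lowest cKO library lay just above the highest Ctrl library. On the log2 scale the fold change was 0.78 ± 0.18 (SE), a ratio of means of 1.75, with an adjusted p of 0.0243 by limma. Leaving out cKO 1, cKO 4, Ctrl 2, Ctrl 3 or Ctrl 4 took the adjusted p to as much as 0.0667, with a log2 fold change between 0.66 and 0.79 in those fits. Of the other cationic carriers, Slc7a2 and Slc7a4, named to complete the class, were not called. Slc7a2 had 10.0 to 21.1 normalized counts in cKO and 2.10 to 88.1 in Ctrl, the highest value being in Ctrl 4, which also had the highest sum of fibroblast and muscle markers (3977, against at most 1745 in the other 7 libraries). The per-kilobase sum of the class was 427 ± 62.6 in cKO and 294 ± 30.3 in Ctrl (SD, n = 4 each), and most of it was Slc7a1. Of the 4 tested members of the class, 2 were higher and none was lower, with a median log2 fold change of 0.52. Slc7a3, 1 of the 2, passed the filter only through the cKO libraries and so gives no support for the direction of the class. Slc7a2 (0.26), which enters that median, turned sign with edgeR (-0.78) and DESeq2 (-0.77).

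The exchanger pair of Slc3a2 and Slc7a5 rose in both parts. Slc7a5 is the light chain that takes up leucine, phenylalanine, tryptophan and other large neutral amino acids (ENSMUSG00000040010, chromosome 8, 121881150 to 121907694, minus strand). It had 2328, 1158, 1504 and 2268 normalized counts in cKO libraries, against 748, 559, 589 and 629 in Ctrl libraries. The groups were well apart, and cKO 2 was the lowest of the cKO libraries. Slc7a5 had a log2 fold change of 1.47 ± 0.22 (SE), a ratio of means of 2.87, with an adjusted p of 0.00719 by limma.

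Slc3a2 encodes the heavy chain that carries Slc7a5, Slc7a6, Slc7a7, Slc7a8 and Slc7a11 to the membrane (ENSMUSG00000010095, chromosome 19, 8706882 to 8723369, minus strand). Its normalized counts were 2880.0, 2448, 2253 and 3017 in cKO libraries, against 1563, 1479.8, 1588 and 1694 in Ctrl libraries. All 4 cKO libraries were higher than all 4 Ctrl libraries, and the 4 Ctrl libraries lay within a narrow range. With a log2 fold change of 0.74 ± 0.10 (SE) and a ratio of 1.68, it had an adjusted p of 0.00603 by limma.

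Slc7a11 is the light chain that brings in cystine in exchange for glutamate, which supplies cysteine for glutathione (ENSMUSG00000027737, chromosome 3, 49892526 to 50443614, minus strand). Normalized counts of Slc7a11 were 958, 391, 773 and 1116 in cKO libraries and 204, 173, 264 and 247 in Ctrl libraries. The groups did not overlap, and cKO 2 was again the lowest cKO library. Slc7a11 had a log2 fold change of 1.78 ± 0.31 (SE), a ratio of means of 3.64, with an adjusted p of 0.0106 by limma.

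**Figure D1:**
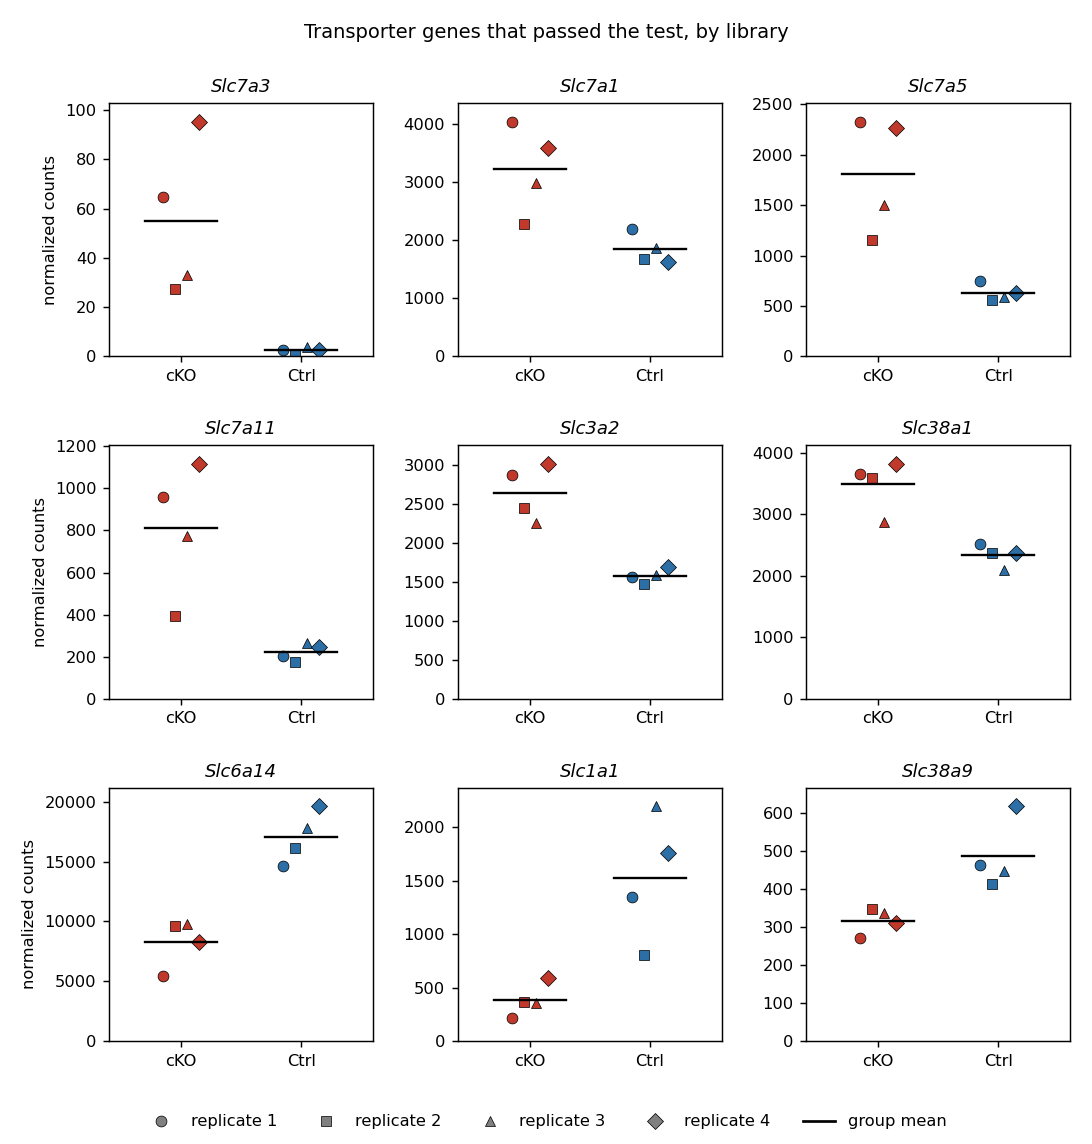
Normalized counts of the 9 transporter genes past the threshold, one panel per gene, with a point for each of the 4 cKO libraries on the left and each of the 4 Ctrl libraries on the right and a black line at the group mean. Each vertical axis is linear and starts at 0. In no panel do the groups overlap; Slc7a3 is near 0 in Ctrl and in Slc7a1 the nearest libraries are 2277 in cKO and 2190.0 in Ctrl.

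ATF4 with a C/EBP partner binds a composite element, here written TGATGNAA, and the promoters of the genes that changed were read for it. The windows were RefSeq's on GRCm38.p6, 250 bases before to 50 bases after each annotated start, searched on both strands. Of the 32851 windows in the set, 1304 held the motif, or 3.97%, and 23 held at least 2 matches, or 0.0700%. A window was given for 47 of the 64 members and 4 of these held the motif, Slc7a11, Slc1a4, Slc7a7 and Slc6a21, beside 1219 of 27025 genes with a window, or 4.51%. Of the 6 higher members, Slc3a2, Slc7a1 and Slc7a11 had a window, and Slc7a11 was the one with the motif. Slc38a1, Slc7a3 and Slc7a5 had none in the set. The Slc7a11 promoter held 2 matches on opposite strands, with first bases 66 and 47 bases before the start. A Slc7a7 window also held 2 matches, 141 bases and 1 base before its start, and Slc7a7 was not called. The stretches below hold both matches in Slc7a11, which was higher in cKO, the match in Slc1a4 and the nearer match in Slc7a7, neither of which was called; all are on the gene's own strand, 5′ to 3′, and capitals mark the matched letters, TTGCATCA being the motif on the opposite strand. A match says only that these letters are present.
Slc7a11, chr3:50443634-50443703, minus strand: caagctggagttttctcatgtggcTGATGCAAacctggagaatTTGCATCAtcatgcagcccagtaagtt
Slc1a4, chr11:20332704-20332763, minus strand: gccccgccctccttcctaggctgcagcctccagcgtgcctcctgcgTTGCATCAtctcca
Slc7a7, chr14:54417935-54418004, minus strand: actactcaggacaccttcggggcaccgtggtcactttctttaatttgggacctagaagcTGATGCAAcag

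The other light chains of Slc3a2 were not called. Slc7a6, which exchanges cationic for neutral amino acids and is named here to complete the set, had 995, 633, 635 and 922 normalized counts in cKO libraries and 593, 505, 480.3 and 532 in Ctrl libraries. These groups did not overlap, yet the adjusted p was 0.0571 by limma (log2 fold change 0.57 ± 0.17, SE). Slc7a7, the basolateral partner that releases cationic amino acids into the blood, had 1199 to 1567 normalized counts in cKO and 758 to 1461 in Ctrl (log2 fold change 0.13 ± 0.20, SE; limma adjusted p = 0.721). It overlaps the gene Oxa1l on the opposite strand, and whether strand was used in counting was not stated. Slc7a8, a basolateral exchanger of neutral amino acids, had 51.1 to 135 normalized counts in cKO and 21.9 to 355 in Ctrl (log2 fold change -0.69 ± 0.80, SE; limma adjusted p = 0.626), and without Ctrl 1 it was lower in cKO at -1.56 with an adjusted p of 0.0370.

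Divided by gene length, levels of different genes can be set roughly side by side. The lengths are 1 deposited value per gene. Whether they match the transcripts present was not tested, and the shares and ranks below depend on them. The 5 light chains of Slc3a2 summed to 1134 ± 240 normalized counts per kilobase in cKO and 712 ± 102 in Ctrl (SD, n = 4 each), and no cKO library was below any Ctrl library. Slc7a5 made up 48.8%, 35.5%, 41.2% and 44.2% of that sum in the cKO libraries, against 34.8%, 22.0%, 20.1% and 21.4% in the Ctrl libraries. The lowest cKO share was just above the share in Ctrl 1, and the other Ctrl libraries were lower still. Slc7a7 made up 28.1% to 42.5% of the sum in cKO and 39.5% to 55.7% in Ctrl, so that the leading light chain by RNA was Slc7a5 in 3 of 4 cKO libraries and Slc7a7 in 4 of 4 Ctrl libraries. The Slc7a7 share carries the uncertainty of its overlap with Oxa1l. Slc7a11 remained a small part, 4.99% ± 1.21 in cKO and 2.25% ± 0.31 in Ctrl (SD, n = 4 each). The ratio of Slc3a2 to the summed light chains per kilobase was 0.672 ± 0.0787 in cKO and 0.638 ± 0.0868 in Ctrl (SD, n = 4 each), with overlapping ranges.

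**Figure D2:**
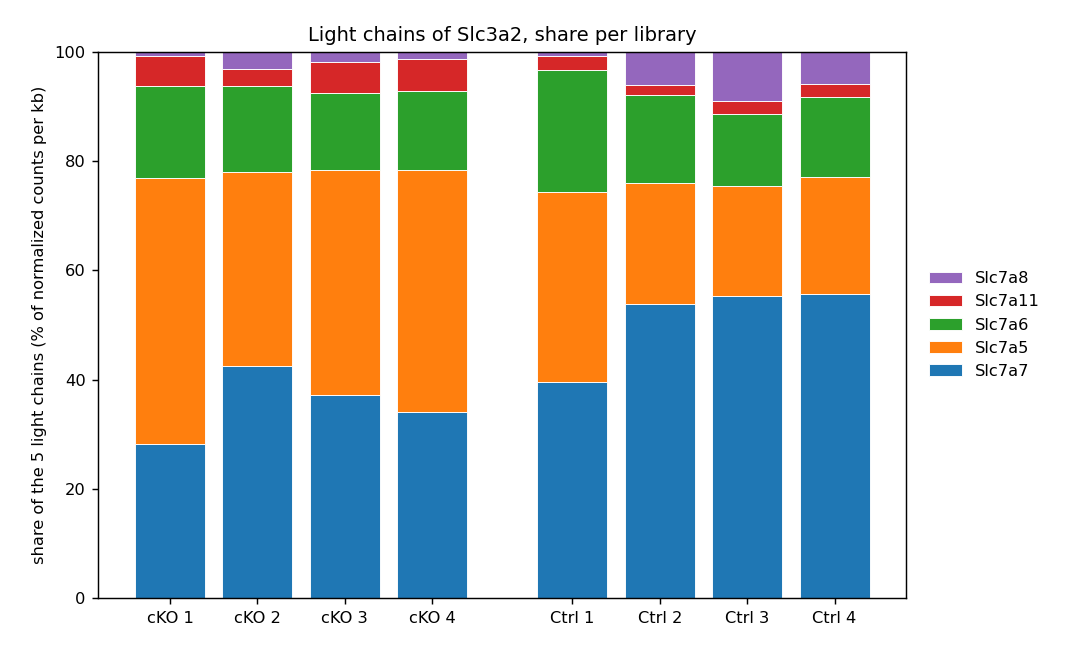
Stacked bars, one per library with the 4 cKO libraries on the left and the 4 Ctrl libraries on the right, of the percentage that each of the 5 light chains of Slc3a2 takes of their summed normalized counts per kilobase. Slc7a5 takes 35.5% to 48.8% in cKO and 20.1% to 34.8% in Ctrl, and Slc7a7 takes 28.1% to 42.5% in cKO and 39.5% to 55.7% in Ctrl.

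The second heavy chain, Slc3a1, works with Slc7a9 in the apical exchange of cystine and cationic amino acids. Slc3a1 had 409, 551, 799 and 305 normalized counts in cKO libraries, against 552, 751, 978 and 634 in Ctrl libraries. The ranges overlapped widely, and it was not called (log2 fold change -0.56 ± 0.29, SE; limma adjusted p = 0.249). Slc3a1 shares bases with Prepl on the opposite strand, a gene of higher level, so its reads are uncertain. Slc7a9 had 85.8 to 441 normalized counts in cKO, the highest in cKO 2, and 92.4 to 156 in Ctrl (log2 fold change 0.68 ± 0.44, SE; limma adjusted p = 0.350). Among the members of the light chain class as a whole, 2 of the 6 tested were higher and none was lower, with a median log2 fold change of 0.62.

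Among the sodium-coupled carriers of small neutral amino acids, Slc38a1 was higher in cKO. Slc38a1 takes up glutamine and other small neutral amino acids (ENSMUSG00000023169, chromosome 15, 96571418 to 96642913, minus strand). It had 3661, 3596, 2876 and 3815 normalized counts in cKO libraries, against 2515, 2377, 2086 and 2369.6 in Ctrl libraries. The groups did not overlap, and the log2 fold change was 0.57 ± 0.11 (SE), a ratio of means of 1.49, with an adjusted p of 0.0127 by limma. Slc38a2, its close relative, had 6255 to 7927 normalized counts in cKO and 5033 to 6179.6 in Ctrl, without overlap, and missed the threshold (log2 fold change 0.34 ± 0.11, SE; limma adjusted p = 0.0731).

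Slc1a4 and Slc1a5 exchange alanine, serine, cysteine and, for Slc1a5, glutamine. Slc1a4 had 2192, 1739.5, 2232 and 2191 normalized counts in cKO libraries and 1866, 1554, 1401 and 1348 in Ctrl libraries. Only the lowest cKO library, cKO 2, fell within the Ctrl range, and the adjusted p was 0.0509 by limma with a log2 fold change of 0.44 ± 0.12 (SE); without cKO 2 the adjusted p was 0.0196. Slc1a5 had 5299, 6285, 6086 and 6316 normalized counts in cKO libraries, against 6391, 5480.1, 6812 and 5767 in Ctrl libraries. The groups overlapped, and the log2 fold change was -0.03 ± 0.10 (SE; limma adjusted p = 0.884), with a small positive sign, 0.056, when libraries were scaled to their totals. The class had 4 tested members of 8, of which 1 was higher and none lower, with a median log2 fold change of 0.39.

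Among the acidic amino acid carriers, Slc1a1 was lower in cKO. It takes up glutamate and aspartate at the apical surface of gut and kidney epithelium (ENSMUSG00000024935, chromosome 19, 28835049 to 28913960, plus strand). It had 217, 365, 356 and 589 normalized counts in cKO libraries, against 1344, 802, 2198 and 1758 in Ctrl libraries. Even the highest cKO library was below the lowest Ctrl library. The means were 382 ± 154 in cKO and 1526 ± 595 in Ctrl (SD, n = 4 each), a ratio of 0.250, and the log2 fold change was -1.99 ± 0.36 (SE) with an adjusted p of 0.0134 by limma. Slc1a3, a glutamate carrier best known in glia, had 7.80 to 24.1 normalized counts in cKO and 23.1 to 43.6 in Ctrl and was not called (log2 fold change -0.97 ± 0.37, SE; limma adjusted p = 0.125). Slc1a2, the other tested member of the class, had 3.65 to 20.1 normalized counts in cKO and 13.4 to 27.3 in Ctrl (limma adjusted p = 0.228). The class sum per kilobase was 49.3 ± 19.2 in cKO and 190.4 ± 72.8 in Ctrl (SD, n = 4 each), nearly all of it Slc1a1. The median log2 fold change of the 3 tested members was -0.97, with 1 of them lower.

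Slc6a14 was the most abundant transporter per kilobase in both groups. It takes up neutral and cationic amino acids at the apical surface with sodium and chloride, and is best known in the colon and lung (ENSMUSG00000031089, chromosome X, 21714896 to 21742355, plus strand). It had 5412, 9639.6, 9779.9 and 8252 normalized counts in cKO libraries, against 14656, 16112, 17835 and 19627 in Ctrl libraries. The groups were clearly apart, and cKO 1 was the lowest of the cKO libraries. Slc6a14 had a log2 fold change of -1.07 ± 0.19 (SE), 2.06 times as much in Ctrl by the means, with an adjusted p of 0.0108 by limma. Both X-linked members that were called, Slc6a14 and Slc7a3, were called without cKO 3 as well, at -1.17 (adjusted p = 0.0111) for Slc6a14 and 4.08 (adjusted p = 0.00433) for Slc7a3.

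Slc6a14 took 14.4%, 17.6%, 22.3% and 18.3% of the summed per-kilobase level of the 61 transporter genes in the cKO libraries, against 33.9%, 35.5%, 34.4% and 36.2% in the Ctrl libraries. The Ctrl libraries lay within a few points of each other and all were above the cKO libraries. The sum itself was 13219 ± 2083 normalized counts per kilobase in cKO and 14169 ± 1505 in Ctrl (SD, n = 4 each), with overlapping ranges. After Slc6a14, Slc6a8, which carries creatine, ranked 2nd in both groups at 2247 per kilobase in cKO and 1788 in Ctrl. Slc1a5 ranked 3rd in both, at 1437 per kilobase in cKO and 1465 in Ctrl. Slc38a2 ranked 4th in cKO and 5th in Ctrl, and Slc38a10, an orphan member of its family, 7th in cKO and 4th in Ctrl. The gap between Slc6a14 and Slc6a8 was within the spread of the cKO libraries (2409 ± 590 and 2247 ± 1055 per kilobase, SD, n = 4) and far outside that of the Ctrl libraries (4967 ± 626 and 1788 ± 345 per kilobase, SD, n = 4). Slc7a5 ranked 9th in cKO and 14th in Ctrl, and Slc1a1 28th in cKO and 13th in Ctrl.

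**Figure D3:**
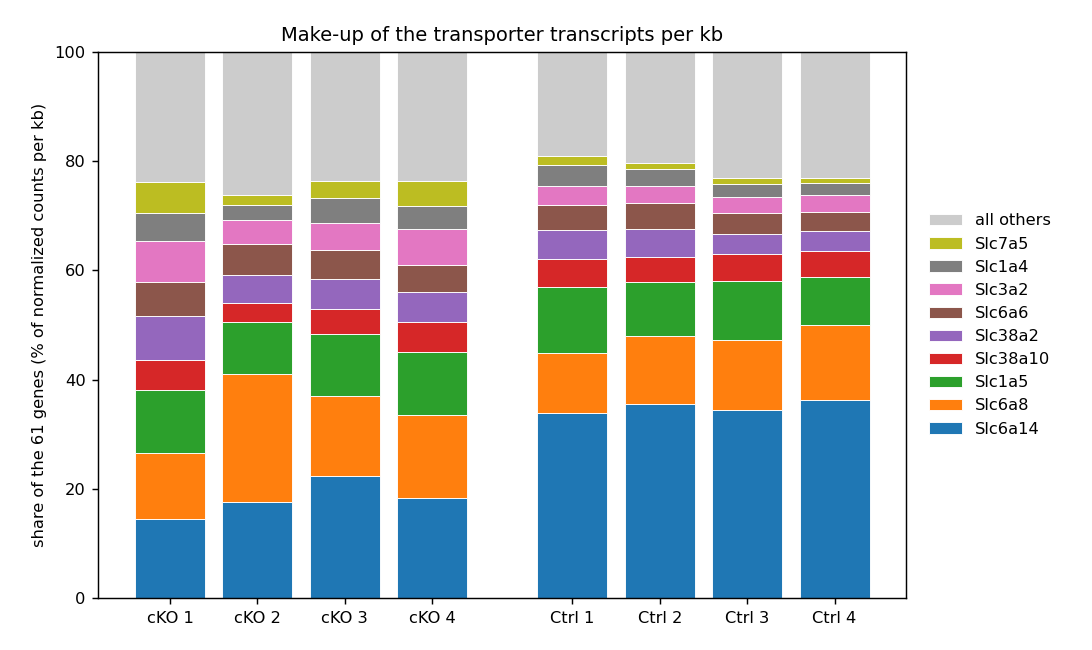
Stacked bars, one per library with the 4 cKO libraries on the left and the 4 Ctrl libraries on the right, of the percentage of the summed normalized counts per kilobase of the 61 transporter genes taken by single genes and by the rest. Slc6a14 takes 14.4% to 22.3% in cKO and 33.9% to 36.2% in Ctrl.

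Of the other broad neutral and imino acid carriers, Slc6a19 is the main apical carrier of neutral amino acids in the small intestine. Slc6a19 had 28.3, 820.0, 26.1 and 19.6 normalized counts in cKO libraries, against 41.4, 39.9, 22.7 and 40.9 in Ctrl libraries. It was low in 7 of 8 libraries and high in cKO 2, the library with the highest colonocyte sum. The log2 fold change was 0.74 ± 1.09 (SE; limma adjusted p = 0.705), and without cKO 2 it was -0.51 (adjusted p = 0.274). Slc6a20a, the apical carrier of proline and other imino acids, had 22.6 to 84.3 normalized counts in cKO and 56.0 to 164 in Ctrl, which overlapped (log2 fold change -1.23 ± 0.46, SE; limma adjusted p = 0.119). Its neighbouring paralog Slc6a20b could share reads with it, so the value is uncertain. Of the 3 tested members of this class 1 was lower and none higher, with a median log2 fold change of -1.07.

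Slc15a1, the apical carrier of di- and tripeptides, had 293, 1722, 661 and 768 normalized counts in cKO libraries, against 586, 463, 910.4 and 1759 in Ctrl libraries. The libraries of both groups spread over the same range, and the log2 fold change was -0.19 ± 0.58 (SE; limma adjusted p = 0.861). Slc15a2, the peptide carrier best known in the kidney, had 182, 747, 429.7 and 2.94 normalized counts in cKO libraries and 70.6, 317, 565 and 429 in Ctrl libraries (log2 fold change -1.14 ± 1.62, SE; limma adjusted p = 0.694). It was nearly absent from cKO 4, and without that library the sign turned to 0.51. Slc15a3, a lysosomal carrier of histidine and peptides that is best known in immune cells, had 68.5, 11.7, 50.2 and 83.4 normalized counts in cKO libraries and 1.22, 12.6, 15.2 and 14.2 in Ctrl libraries. Only cKO 2 was not above the Ctrl libraries, the same library that had the lowest leukocyte and neutrophil sums in cKO (440 and 99.5 normalized counts), and the part of those cells was not tested. The log2 fold change was 2.25 ± 0.78 (SE; limma adjusted p = 0.0981), and without cKO 2 it was 2.85 (adjusted p = 0.0289). Slc15a3 overlaps Tmem132a on the opposite strand, a gene of higher level. None of the 4 peptide and histidine carriers was called, and their median log2 fold change was -0.03.

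**Figure D4:**
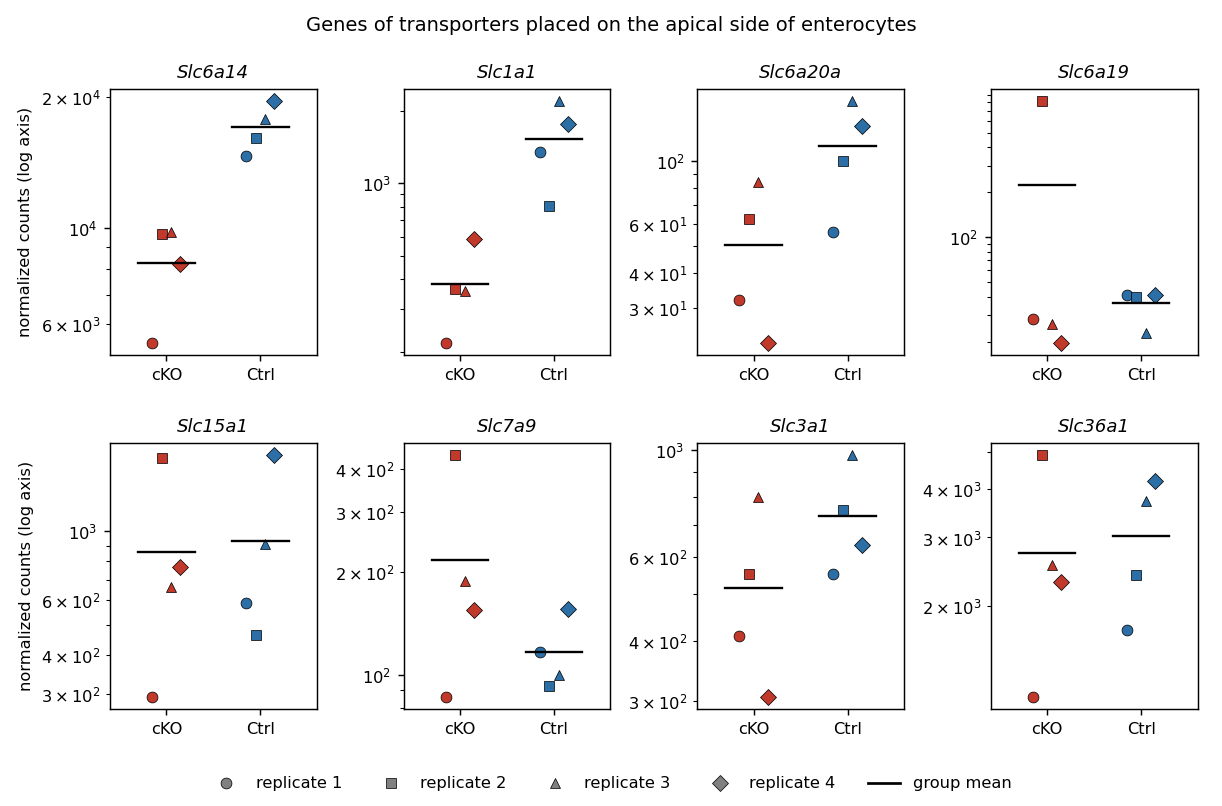
Normalized counts, on a log axis, of the 8 transporter genes listed as apical in enterocytes, with the 4 cKO libraries left of the 4 Ctrl libraries for each gene. Slc6a14 and Slc1a1 are lower in every cKO library than in every Ctrl library, while Slc6a19 stays at 19.6 to 41.4 except for 820.0 in cKO 2.

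The 8 members listed as apical held no gene higher and 2 lower, Slc1a1 and Slc6a14, with a median log2 fold change of -0.40. Among the 5 listed as basolateral, 1 was higher, Slc3a2, and none lower, with a median of 0.57. These are counts on small lists, beside 5.65% higher and 6.07% lower among all tested genes, and no test of the difference between them was run. A single call on a list of this size does not stand out from those shares, and the same holds for the accessory list below. Slc43a2, a basolateral uniporter of large neutral amino acids, had 375 to 662 normalized counts in cKO and 243 to 418 in Ctrl and was not called (log2 fold change 0.70 ± 0.24, SE; limma adjusted p = 0.0876). The accessory list, with partners and drivers of these carriers, had 11 of 12 genes tested, none higher and 1 lower. The gene lower was Dpp4, a brush border peptidase (log2 fold change -0.55; limma adjusted p = 0.0171). Anpep, which also cuts peptides at the brush border, had 151 ± 41.8 normalized counts in cKO and 103 ± 20.9 in Ctrl (SD, n = 4 each; limma adjusted p = 0.217). The sodium-proton exchanger Slc9a3, which supplies protons to the peptide carriers, and Slc16a10, a carrier of aromatic amino acids, were not called (limma adjusted p = 0.471 and 0.858). Pdzk1 was under the limit of 10.

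Of the lysosomal carriers, Slc38a9, which reports arginine inside the lysosome to mTORC1, was lower in cKO (ENSMUSG00000047789, chromosome 13, 112660751 to 112738749, plus strand). It had 271, 347, 337 and 310.1 normalized counts in cKO libraries, against 465, 414, 447 and 618 in Ctrl libraries. No cKO library reached the lowest Ctrl library. The log2 fold change was -0.61 ± 0.15 (SE), 1.54 times as much in Ctrl by the means, with an adjusted p of 0.0321 by limma, and the call was lost without cKO 1, cKO 4, Ctrl 1, Ctrl 3 or Ctrl 4, at an adjusted p of up to 0.0805. Slc36a1, a proton-coupled carrier of glycine, alanine and proline, had 1158 to 4903 normalized counts in cKO and 1733 to 4211 in Ctrl (limma adjusted p = 0.766). The list of amino acid sensing at the lysosome had 24 of 25 genes tested, 2 higher and 2 lower, with a median log2 fold change of 0.04. Both counts are near the shares among all tested genes, 5.65% higher and 6.07% lower, so they do not set the list apart. Those higher were Rraga, a GTPase that recruits mTORC1 (0.47), and Sesn2, a leucine sensor that is also a reported ATF4 target (0.96), and those lower were Sesn1 (-0.60) and Sesn3 (-0.64), relatives of Sesn2.

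The 5 listed lysosomal members held 1 lower and none higher, with a median log2 fold change of 0.14. The remaining classes held no call in either direction. Among the glycine and proline carriers, 2 were tested, with a median log2 fold change of 0.34, and among the proton-coupled carriers 2 of 4 were tested, with a median of -0.10. Slc6a6, the taurine carrier, named here because its groups did not overlap, had 5488 to 7686 normalized counts in cKO and 4722 to 5210.2 in Ctrl (log2 fold change 0.31 ± 0.11, SE; limma adjusted p = 0.105). Slc6a8 had 6955, 19629, 9776 and 10478 normalized counts in cKO libraries and 7193 to 11359 in Ctrl libraries (limma adjusted p = 0.631), its value in cKO 2 being far above the rest. Slc6a4, the serotonin carrier, had 44.7 to 606 normalized counts in cKO and 183 to 643 in Ctrl (log2 fold change -1.16 ± 0.75, SE; limma adjusted p = 0.360). Counting groups that do not overlap, whatever their p, gave 9 members higher and 3 lower, beside 9.54% of all tested genes higher and 10.3% lower; the 9 were the 6 called members with Slc7a6, Slc38a2 and Slc6a6.

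**Figure D5:**
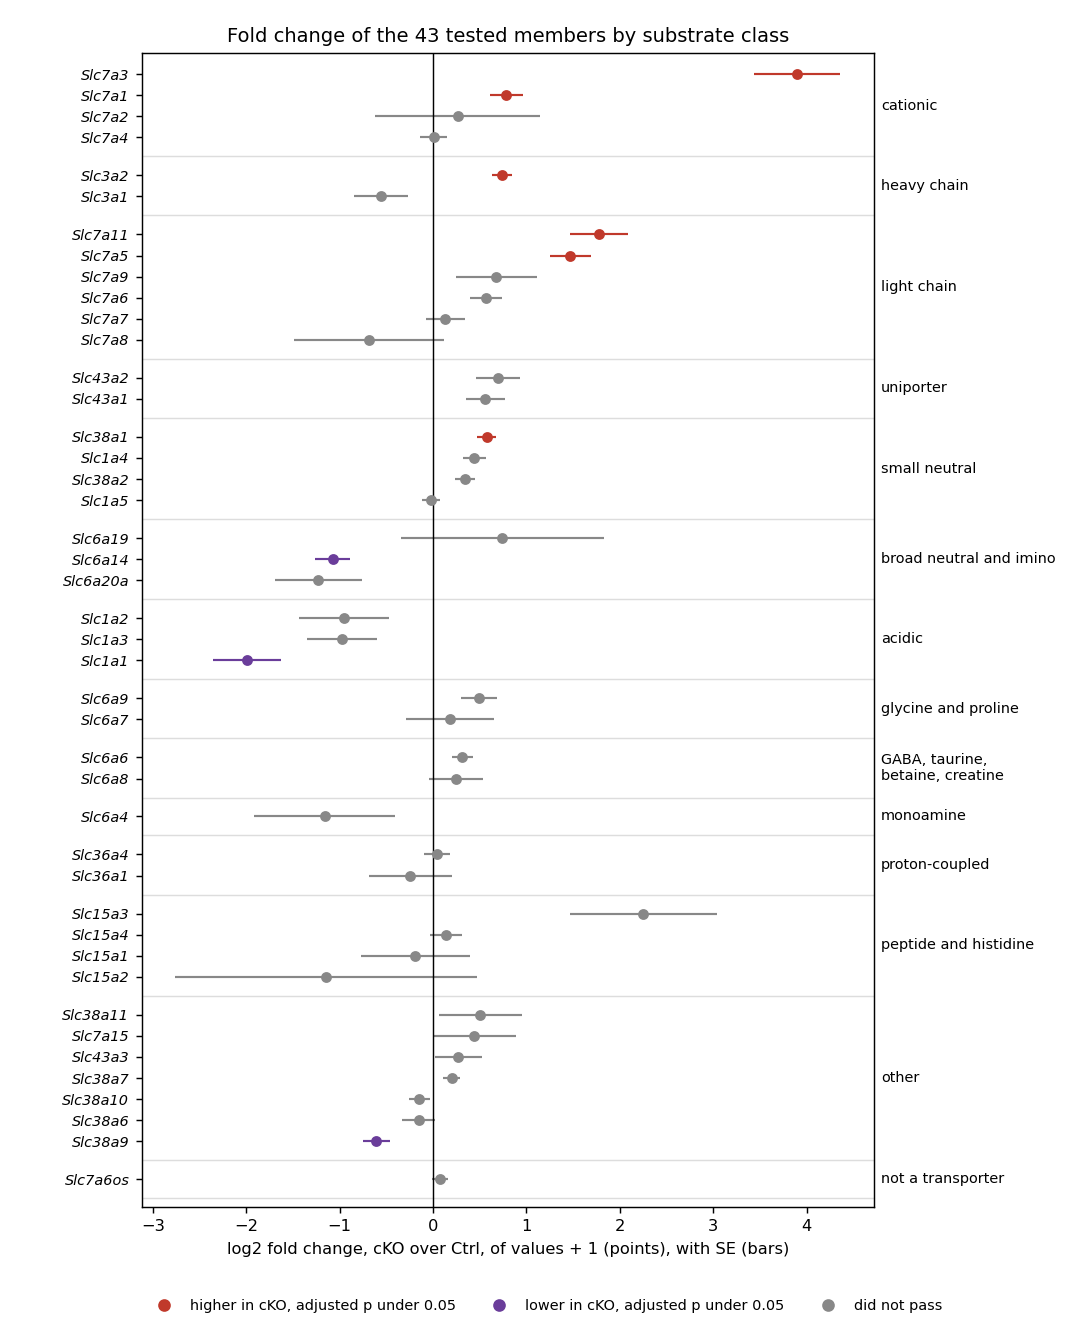
Log2 fold change of cKO over Ctrl with its standard error for the 43 tested members, grouped by substrate class, with called genes marked. The values run from -1.99 for Slc1a1 to 3.90 for Slc7a3, and the wide bars of Slc15a2 and Slc6a19 come with one library that differs from the rest of its group.

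The reported ATF4 targets among the transporters were compared with the other genes of that pathway. Of the 9 transporters on that list, 5 were higher and none was lower, with a median log2 fold change of 0.74. Slc7a3, 1 of the 5, passed the filter on low values only through the cKO libraries. The list of 9 and the pathway list were drawn up with earlier results of these data known. Neither is independent evidence of its direction. Of the 29 genes on the pathway list outside the family, 13 were higher and 1 lower, with a median of 0.53. Among all tested genes, 5.65% were higher and 6.07% lower. Trib3, a pseudokinase induced in the amino acid response, had 422 normalized counts on average in cKO and 12.4 in Ctrl (log2 fold change 4.83; limma adjusted p = 0.00310). Asns, which makes asparagine, was higher by a log2 fold change of 1.21 (limma adjusted p = 0.00872), and Chac1, which breaks down glutathione, by 2.04 (limma adjusted p = 0.0142). The gene lower was Gpt2, a mitochondrial alanine aminotransferase (log2 fold change -0.97; limma adjusted p = 0.0298). RNA of Atf4 itself was 5841 in cKO and 5080.0 in Ctrl (log2 fold change 0.18; limma adjusted p = 0.411), and Ddit3, another factor of the stress response, had an adjusted p of 0.369.

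The authors' deposited table, from a test it does not name, called 10 members higher and 3 lower at an adjusted p under 0.05, beside 5.03% of all genes with a p-value higher and 5.07% lower in the authors' deposited table. All 6 higher and all 3 lower members named above were among them, and the authors' deposited table adds Slc15a3, Slc1a4, Slc43a2 and Slc7a6 as higher. The 21 members under the limit had means over the 8 libraries of at most 9.95 normalized counts. Of these, 19 were transporter genes, and none had more than 55 reads summed over a group. They included Slc6a12, which carries betaine and GABA, with 28 reads over cKO and 55 over Ctrl.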

How the data were processed

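RNA from crypts of 4 cKO and 4 Ctrl mice was compared. CASAVA, HISAT2 2.0.5 and featureCounts 1.5.0-p3 were used, per the submitters' processing notes, in roles that the notes leave out. Genome build, annotation and strand setting: not given in the sources used here. Each gene had 1 deposited normalized count (signal) in each library. The authors appear to have scaled each library's gene counts by a single factor, since 100% of values were whole multiples of a library's smallest step within 0.0001 reads. The recovered totals are the depths given above. Gene names and lengths were those of the deposited table, and the coordinates of all 64 members were identical to GENCODE M21 on GRCm38. The authors' deposited log2 fold changes and p-values were used only where named.

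Since the values are normalized, genes with a mean of at least 10 were tested with limma 3.58.1 (R 4.3.3; eBayes with trend and robust, two-sided) on log2(value + 1), which understates changes of low genes, with Benjamini-Hochberg adjustment over 16536 genes and a threshold of 0.05. Members were found by name and sorted into substrate classes and lists by hand. The members and lists were chosen with earlier results of these data known. Named were all called members, a fixed set of intestinal transporters, the 5 highest per kilobase in Ctrl, the 5 uncalled members with the largest changes and a few accessory and ATF4 pathway genes; others are marked as added, and some genes are not reported here. Alternatives were pseudocounts of 0.5 and 5, no filter or a mean of at least 50, library totals or TMM scaling, edgeR 4.0.16, DESeq2 1.42.0 and limma-voom on the recovered reads, a replicate block, and leaving out each library. Nothing beyond the labels says how the mice were raised or handled, so p-values measure the spread between these libraries. On data simulated for 4 against 4 libraries, with 200 genes changed in each of 2 runs, the test recovered 8.33% of genes changed 1.5-fold, 50.8% of those changed 2-fold and 87.7% of those changed 4-fold. It made 16 false calls over the 2 runs. More genes were called in the data (935 higher and 1004 lower) than were changed in a run. The adjustment depends on that number, so the recovered shares may differ for these data.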

Additional observations from a re-analysis of the deposited data

Results flagged for a closer look

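Within each group of 4, the sample farthest from the rest was looked for in each of the 43 tested members on the log2(value + 1) scale. A gap to the nearest library, as a share of the group's range, beyond Dixon's critical value was found in 6 of 86 groups, and chance flags about 1 in 20 groups, or 4.3 of these. Of the 6, 3 were in cKO 2. Slc6a19 had 820.0 normalized counts there, against 19.6 to 28.3 in the other cKO libraries. Slc6a6 had 7686 there, above the other cKO libraries, and Slc1a4 had 1739.5, below them. In Ctrl, Slc6a19 was lowest in Ctrl 3 with 22.7, and Slc15a3 was lowest in Ctrl 1 with 1.22. Slc7a7 was highest in cKO 4 with 1567.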

How the results depend on the processing

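The 9 called members were refitted under 18 other settings, and none changed sign in any. Slc7a3, Slc7a5, Slc7a11, Slc3a2, Slc38a1, Slc6a14 and Slc1a1 stayed past the threshold in every setting that tested them (a mean of at least 50 leaves Slc7a3 out). Slc7a1 lost its call in 5 of the 8 fits that left out a library, and Slc38a9 in 5 and with the replicate block (adjusted p = 0.0573). Over the leave-one-out fits, genes higher ranged from 379 to 1347, genes lower from 390 to 1385, members higher from 5 to 9 and members lower from 2 to 3. The highest of the gene counts, and the 9, came without cKO 2. DESeq2 called 1509 genes higher and 11 members higher, adding Slc15a3, Slc1a4, Slc38a2, Slc43a2 and Slc7a6. Scaling to library totals shifted the median of all genes to 0.07 and called 1327 genes higher and 740 lower, against 935 and 1004 as reported, with 9 members higher and 3 lower. With the replicate block, 821 genes were higher and 924 lower, with 8 members higher (adding Slc38a2 and Slc7a6) and 2 lower. Same-numbered libraries had correlations of 0.32, -0.11, 0.12 and 0.32 in their deviations. The libraries cKO 1, cKO 3 and cKO 4 each correlated best with their own number, cKO 3 by little (0.12, against 0.11 with Ctrl 2). The library cKO 2 did not, so the numbers were not taken as pairs. These correlations do not settle whether the libraries were paired by number.

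Signs turned only for uncalled members, and the cause was not tested. Over the leave-one-out fits, the log2 fold change ranged from -0.62 to 0.24 for Slc15a1, -2.01 to 0.51 for Slc15a2, -0.077 to 0.032 for Slc1a5, -0.59 to 0.11 for Slc36a1, -0.060 to 0.11 for Slc36a4, -0.51 to 1.26 for Slc6a19, -0.33 to 0.45 for Slc6a7, -0.040 to 0.46 for Slc6a8, -0.48 to 1.14 for Slc7a2, -0.092 to 0.097 for Slc7a4 and -0.083 to 0.23 for Slc7a7. The turned sign came without cKO 2 for Slc6a19, Slc6a7 and Slc6a8, without cKO 2 or Ctrl 2 for Slc36a4, and without cKO 2, cKO 4 or Ctrl 2 for Slc7a4. Slc1a5 turned to 0.056 with library totals, and Slc7a2 to -0.78 with edgeR and -0.77 with DESeq2. The 21 members under 10 normalized counts, with at most 55 reads over a group, were not in the reported test, and none of them was called with no filter.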
